A study of Mus musculus with 19 samples.

Results

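9 genes of the core apoptosis machinery were followed in mouse liver: the death receptors Fas and Tnfrsf1a, the second TNF receptor Tnfrsf1b, the initiator caspase Casp8 and its regulator Cflar, and the BCL2 family members Bcl2l1, Mcl1, Bid and Bax. Each was read from probe sets that the platform annotation assigns to a single gene symbol. 8 of the 9 members have such a probe set, 23 probe sets in all, out of 18193 genes with one. Bax was not analysed here. All 8 were above log2 4 on every one of the 19 arrays, so all 8 were among the 8515 genes tested. Where a gene has several probe sets, the one with the highest mean over the 19 arrays stands for it and the others serve as a check.

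The livers came from male C57BL/6 mice aged 10 to 12 weeks, killed 2 h after resection of 85% of the liver, so every group had been operated on and no unoperated liver was included. The 4 genotypes were wild type (WT, n = 5), Ager null (n = 6), Myd88 null (n = 4) and null for both Ager and Myd88 (double null, n = 4). Ager encodes RAGE, a receptor for danger signals, and Myd88 encodes the adaptor of most Toll-like and interleukin-1 receptors. The labels do not say how the alleles were made or whether arrays share an animal or litter, so p-values measure the spread between these arrays. With no unoperated liver, the comparisons below set genotypes against each other at a single time after surgery and do not measure a response to resection.

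Death receptors of the TNF receptor family, such as Fas and Tnfrsf1a, carry a cytoplasmic death domain, which Tnfrsf1b lacks, and they recruit Casp8 through adaptor proteins. In hepatocytes the caspase-8 signal is usually amplified through mitochondria: Casp8 cleaves Bid, whose fragment engages Bax-type pore formers, while Bcl2l1 (Bcl-xL) and Mcl1 hold those in check. Cflar (c-FLIP) is a relative of Casp8 that competes for the receptor complex, and Tnfrsf1a can also signal for survival through NF-kB.

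Stretches of 250 bases upstream of the annotated starts are printed for the 3 receptors, for Cflar and for 1 start of Bcl2l1, the members the results turn on. They come from the RefSeq table of build GRCm38.p6 and are written 5′ to 3′ on the gene's strand. Capitals mark matches, on either strand, to GGG, 5 bases of any kind and CC, the general form of an NF-kB site, or to TTCNNNGAA, the general form of a STAT site; where 2 matches overlap, the capitals run together.
Fas, chr19:34290409-34290658, plus strand: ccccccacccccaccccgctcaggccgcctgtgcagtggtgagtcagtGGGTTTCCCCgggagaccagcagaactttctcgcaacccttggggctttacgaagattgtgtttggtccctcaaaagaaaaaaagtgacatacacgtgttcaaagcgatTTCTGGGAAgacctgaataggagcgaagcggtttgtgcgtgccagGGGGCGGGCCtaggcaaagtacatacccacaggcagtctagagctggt
Tnfrsf1a, chr6:125349473-125349722, plus strand: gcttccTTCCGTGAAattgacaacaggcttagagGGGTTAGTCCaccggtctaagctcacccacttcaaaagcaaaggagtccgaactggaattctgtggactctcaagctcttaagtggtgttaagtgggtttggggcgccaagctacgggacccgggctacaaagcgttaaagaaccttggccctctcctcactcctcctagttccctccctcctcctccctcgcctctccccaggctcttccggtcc
Tnfrsf1b, chr4:145246871-145247120, minus strand: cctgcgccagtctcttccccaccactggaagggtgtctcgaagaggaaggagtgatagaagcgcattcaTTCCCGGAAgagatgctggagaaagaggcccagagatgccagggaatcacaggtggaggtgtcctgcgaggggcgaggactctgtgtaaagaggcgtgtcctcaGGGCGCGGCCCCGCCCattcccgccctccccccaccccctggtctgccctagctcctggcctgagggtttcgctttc
Cflar, chr1:58711241-58711490, plus strand: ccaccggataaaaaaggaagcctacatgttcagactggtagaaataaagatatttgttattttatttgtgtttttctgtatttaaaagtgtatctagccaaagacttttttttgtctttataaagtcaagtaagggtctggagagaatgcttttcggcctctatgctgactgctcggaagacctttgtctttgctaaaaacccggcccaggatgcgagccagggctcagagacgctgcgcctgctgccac
Bcl2l1, chr2:152830718-152830967, minus strand: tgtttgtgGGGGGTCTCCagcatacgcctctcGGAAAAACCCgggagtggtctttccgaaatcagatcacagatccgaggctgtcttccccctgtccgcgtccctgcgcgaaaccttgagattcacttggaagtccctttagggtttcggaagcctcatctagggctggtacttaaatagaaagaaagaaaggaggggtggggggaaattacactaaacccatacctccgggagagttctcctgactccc

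Over the 11 windows of the 9 members, the NF-kB form was found in 7, against 45.8% of all 32851 windows of the same length. TTCNNNGAA was found in 3 of the 11, those of Fas, Tnfrsf1a and Tnfrsf1b, against 7.02% of all windows. A match is a description of letters and not a site. The Cflar window held neither motif, which says only that these letters are not in it. The windows at the other annotated starts of Bcl2l1, not printed, also held neither motif, so the printed window does not stand for the gene. Casp8 and Cflar lie on chromosome 1 with 1 annotated gene between them, Tnfrsf1a and Bid are on chromosome 6, and no member is on chromosome 17 or 9, where Ager and Myd88 lie.

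The arrays matched their labels where they could be checked. Myd88 averaged log2 5.55 in WT and 5.91 in Ager null, against 3.49 in Myd88 null and 3.45 in double null; Ager was near log2 3 in all 4 groups, below the filter, and checks nothing. The extraction protocol in the labels speaks of glomeruli, but all 10 hepatocyte markers on the arrays were above log2 4 throughout, with a median of 14.4, and 0 of 12 kidney markers were. Myd88 null array 4 stood apart, with a median correlation of 0.965 with other arrays where every other array reached at least 0.979. The sample descriptions carry S numbers of unstated meaning, and no range of S numbers holds both Ager null and double null arrays, so for that comparison the range and the genotype cannot be told apart. All 6 Ager null arrays lie in S range 13 to 20, with 1 WT and 1 Myd88 null array, so Ager null against WT, Ager null against Myd88 null and the interaction also lean on how that range differs from the others. A fit with the S range as a block ties that range to the others only through WT array 5 and Myd88 null array 4. Values from that block below, for comparisons with Ager null or the interaction, carry this limit.

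None of the 8 genes passed the limma test (adjusted p under 0.05 over all 8515 genes) in any of 7 comparisons: the 6 pairs of genotypes and their interaction, which asks whether losing Ager acts differently with and without Myd88. In the order Ager null against WT, Myd88 null against WT and double null against WT, 0 of 8 were called where 1.26%, 0.399% and 0.317% of all tested genes were. For double null against Ager null, double null against Myd88 null, Ager null against Myd88 null and the interaction, 0 of 8 were called where 2.44%, 0.153%, 1.26% and 2.41% of all tested genes were. At these background shares a count of 0 among 8 says little about the members as a group. At an unadjusted p under 0.05, limma gave 0 of 8 in 5 comparisons. The other two each gave 1, and that was Bcl2l1 both times: double null against Ager null, where 22.7% of all genes had such a p, and the interaction, where 27.2% did. The background at that level was 21.6%, 19.6%, 8.57%, 16.1% and 15.9% in Ager null against WT, Myd88 null against WT, double null against WT, double null against Myd88 null and Ager null against Myd88 null.

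**Figure D1:**
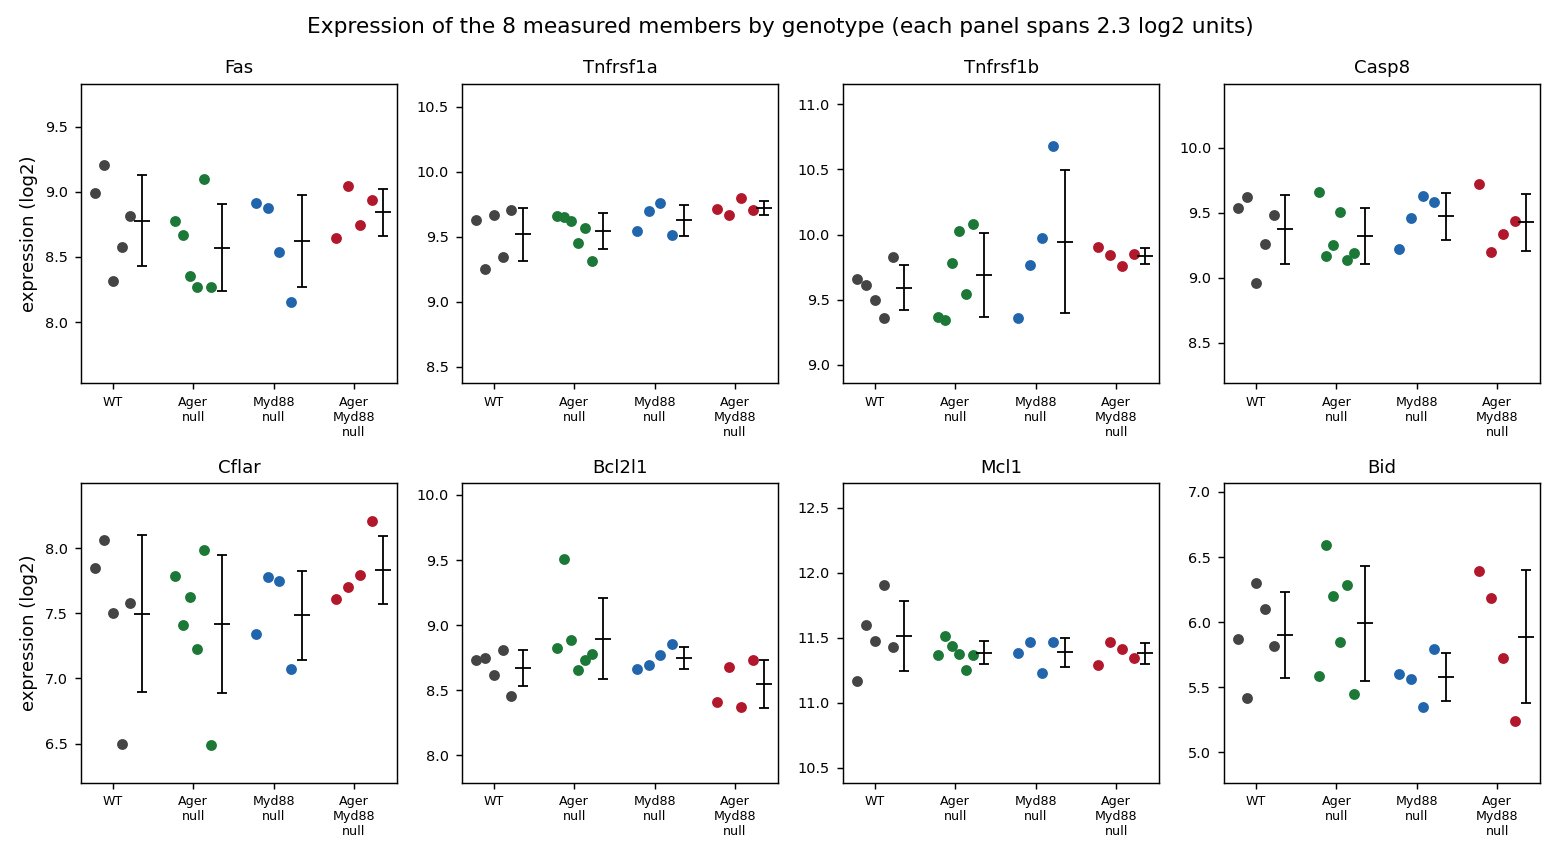
Level of each of the 8 members on each array, in deposited log2 units, by genotype; points are arrays and the black bar is the mean ± SD (WT n = 5, Ager null n = 6, Myd88 null n = 4, double null n = 4). The groups overlap in every panel except Tnfrsf1a, where the lowest double null array (9.67) lies just above the highest Ager null array (9.66).

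The median difference over the 8 members stayed close to that of all tested genes. It was -0.01 for Ager null against WT where all genes gave 0.02, 0.03 for Myd88 null against WT where all genes gave 0.07, and 0.06 for double null against WT where all genes gave 0.07. Among the pairs of genotypes the largest offset was in double null against Ager null, 0.13 for the members and 0.04 for all genes, and the interaction gave 0.10 and -0.02. The sizes were small: the median absolute difference of the members ran from 0.09 (Ager null against WT, all genes 0.19) to 0.21 (interaction, all genes 0.33). These comparisons share arrays and are not separate evidence. Overlap was counted on the brightest probe set of each gene. Groups whose arrays did not overlap were found for 0 of the 8 members in Ager null against WT (3.7% of all tested genes), Myd88 null against WT (4.52%), double null against WT (3.81%), double null against Myd88 null (5.91%) and Ager null against Myd88 null (3.92%), and for 1 in double null against Ager null (8.39%).

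**Figure D2:**
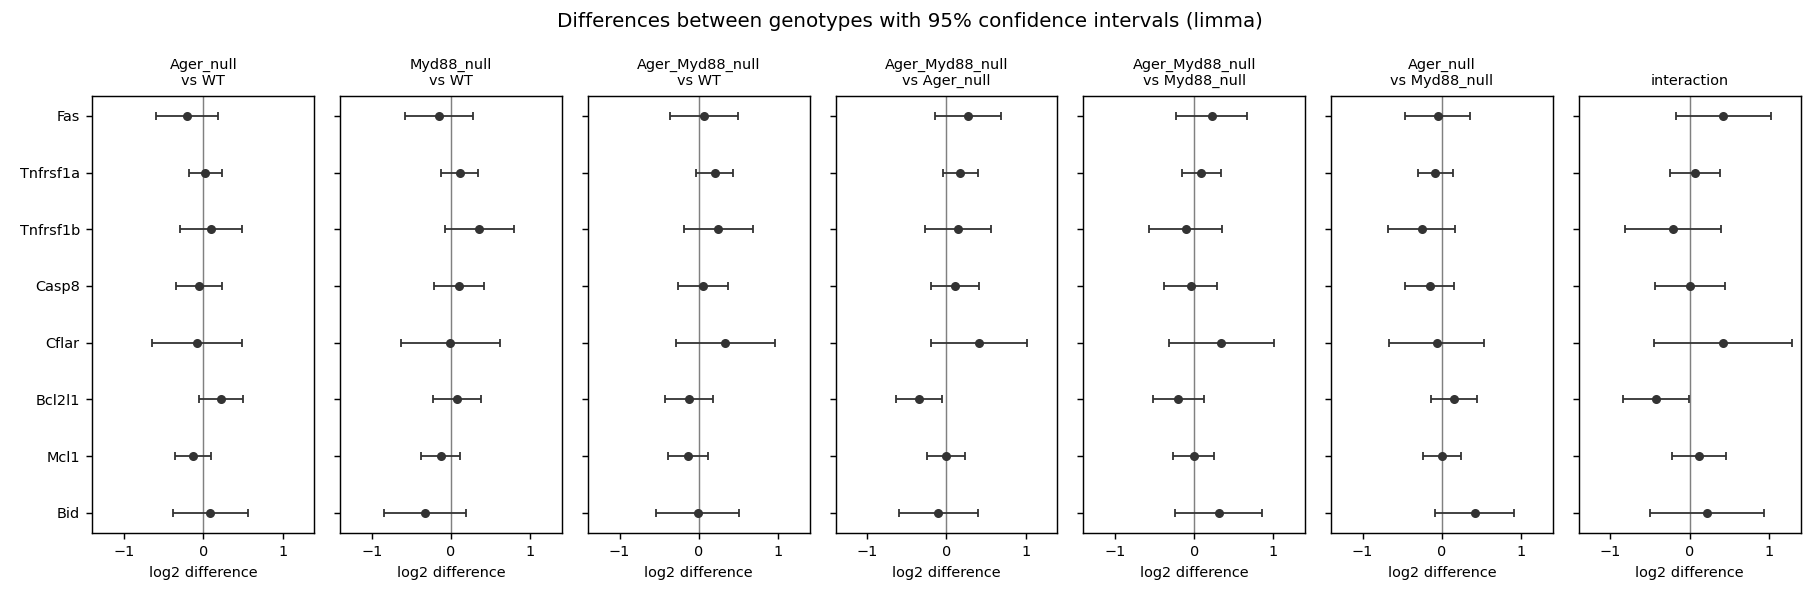
Log2 difference of each member in each comparison (x axis), with its 95% confidence interval from the limma fit; a difference of 0 means equal group means. Only the intervals of Bcl2l1 in double null against Ager null (-0.64 to -0.06) and in the interaction (-0.85 to -0.001) leave out 0.

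Fas, the receptor for Fas ligand and the classical trigger of hepatocyte apoptosis, was at log2 8.99, 9.21, 8.32, 8.57 and 8.81 in the 5 WT livers. In Ager null livers it ran from 8.27 over a median of 8.51 to 9.10, in Myd88 null livers it was 8.92, 8.88, 8.54 and 8.16, and in double null livers 8.64, 9.04, 8.75 and 8.94. The group means were 8.84 ± 0.18 (SD, n = 4) in double null, 8.78 ± 0.35 (n = 5) in WT, 8.62 ± 0.35 (n = 4) in Myd88 null and 8.57 ± 0.33 (n = 6) in Ager null. All 4 groups overlapped. The largest difference, 0.27 between double null and Ager null, had a 95% interval reaching 0.68, a 1.61-fold change.

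Tnfrsf1a, the main TNF receptor on hepatocytes, was the steadiest of the receptors. It measured 9.63, 9.26, 9.66, 9.34 and 9.71 in WT, 9.32 to 9.66 with a median of 9.60 in Ager null, 9.55, 9.70, 9.76 and 9.51 in Myd88 null, and 9.71, 9.67, 9.80 and 9.70 in double null livers. The double null arrays were tight (9.72 ± 0.05, n = 4) and lay above every Ager null array. On brightest probe sets this was the 1 case among the members of groups that did not overlap. The lowest double null array (9.67) and the highest Ager null array (9.66) were nearly equal. The difference of 0.18 ± 0.11 (SE) did not pass limma's test (adjusted p = 0.329). Against WT the double null difference was 0.20 ± 0.11 with an adjusted p of 0.667, and it came to 0.11 with the arrays centred on their median. Its within-group SD of 0.14 was smaller than that of all but 10.8% of the tested genes.

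Tnfrsf1b, the second TNF receptor, which in liver is known mainly from immune and endothelial cells, was 9.66, 9.61, 9.50, 9.36 and 9.82 in WT. It was 9.34 to 10.08 with a median of 9.66 in Ager null, 9.36, 9.76, 9.98 and 10.68 in Myd88 null and 9.90, 9.84, 9.75 and 9.85 in double null livers. Myd88 null array 4 was the highest of the 19 and lifted that group's mean to 9.94 ± 0.55 (n = 4). The difference from WT, 0.35 ± 0.21, did not pass (limma, adjusted p = 0.352). It came to 0.11 (adjusted p = 0.885) without that array and to 0.55 (adjusted p = 0.0767) without Myd88 null array 1. The difference was -0.07 in S range 1 to 6, with 2 Myd88 null and 2 WT arrays. It was 0.55 in S range 7 to 12, with 1 Myd88 null and 2 WT arrays. In S range 13 to 20 it was 0.85, which is Myd88 null array 4 against 1 WT array. These differences within ranges had no test, and the last rests on the array that lifted the group mean. A second probe set of the gene, fainter, correlated with the brightest one at r = 0.579 over 19 arrays. It gave 0.44 ± 0.30 in Myd88 null against WT.

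The array highest in Tnfrsf1b was also the lowest in a macrophage score, the mean of 15 Kupffer cell and macrophage genes after each was centred. The score ran from -0.32 to 0.55 in WT, -0.50 to 0.61 in Ager null, -1.79 to 0.18 in Myd88 null and -0.18 to 0.49 in double null livers; 11 of the 15 genes were above log2 4 on every array, led by Cd5l. Over 19 arrays Tnfrsf1b correlated negatively with the score (r = -0.741, permutation p = 0.00195, adjusted over 8 relations 0.0156; rho = -0.553, permutation p = 0.0153, adjusted 0.122). Without Myd88 null array 4 and Ager null array 5, the arrays farthest from the median score, r was -0.569. Within S ranges 1 to 6 and 13 to 20 it was -0.539 (n = 6) and -0.842 (n = 8), and the second of these ranges holds both arrays. The rank correlation did not pass its adjustment. The second Tnfrsf1b probe set gave r = -0.456 (permutation p = 0.0450, the same after adjustment over 5 relations) and rho = -0.379 (permutation p = 0.111), and r came to -0.231 without those arrays. Fewer cells of a type and less RNA per cell cannot be told apart in whole liver, and the part of these markers in the Tnfrsf1b values was not tested.

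Casp8, the initiator caspase of the death receptor complexes, was nearly level. It was 9.54, 9.62, 8.96, 9.26 and 9.48 in WT, 9.13 to 9.66 with a median of 9.22 in Ager null, 9.22, 9.46, 9.63 and 9.58 in Myd88 null and 9.72, 9.20, 9.34 and 9.44 in double null livers. All groups overlapped and only 7.73% of its variance lay between genotypes, where the median tested gene had 27.8%. The largest difference between 2 genotypes was 0.15, with an interval reaching 0.46, or 1.37-fold.

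Cflar, the regulator that can block or modulate Casp8 activation, was the most variable member, with a within-group SD of 0.48 against a median of 0.27 over all tested genes. Its brightest probe set read 7.85, 8.06, 7.50, 6.49 and 7.58 in WT, 6.49 to 7.99 with a median of 7.52 in Ager null, 7.34, 7.78, 7.75 and 7.07 in Myd88 null and 7.61, 7.71, 7.80 and 8.21 in double null livers. The double null mean was 7.83 ± 0.26 (n = 4) and the Ager null mean 7.42 ± 0.53 (n = 6); limma put the difference at 0.41 ± 0.29 (adjusted p = 0.404), which came to 0.22 without Ager null array 6 and to 0.21 with the S range as a block. The direction depended on the probe set. Of the 3 that passed the filter, the brightest correlated negatively with the other two over 19 arrays (r = -0.692 and -0.580), which correlated positively with each other (r = 0.637). In the same comparison the other two gave -0.19 ± 0.29 (SE) and -0.69 ± 0.32, the latter with an adjusted p of 0.211. A single Cflar level is therefore not given here, and which transcripts each probe set reads was not tested.

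**Figure D3:**
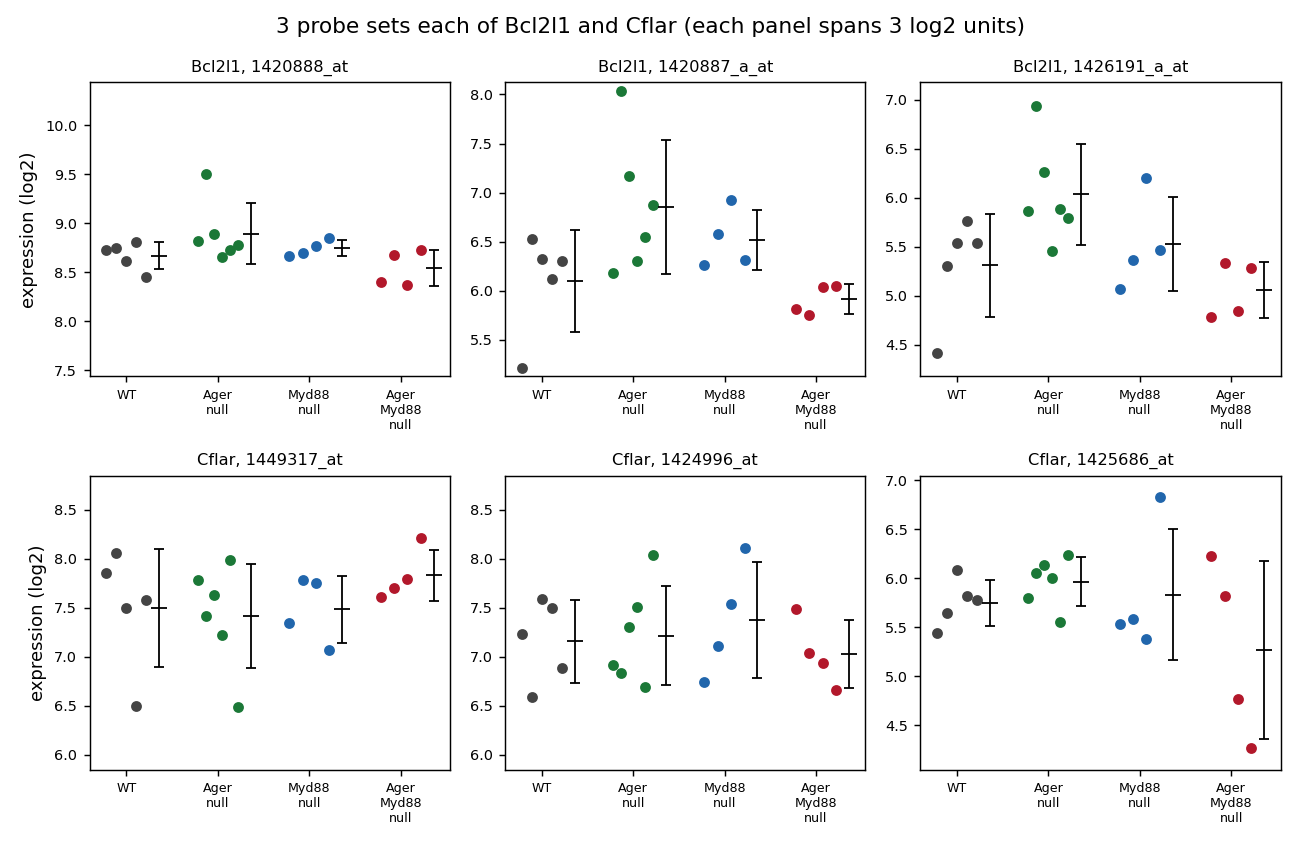
Log2 level of the 3 probe sets past the filter for Bcl2l1 and the 3 for Cflar, by array and genotype (points are arrays, black bars mean ± SD). The 3 Bcl2l1 probe sets share a highest array, Ager null array 2 (9.51, 8.04 and 6.94), whereas the Cflar probe sets run in opposite directions across arrays.

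Fas and the brightest Cflar probe set moved together across arrays. Over 19 arrays r was 0.660 (permutation p = 0.00145, adjusted over 28 member pairs 0.0406) and rho was 0.740 (permutation p = 0.00055, adjusted 0.0154); this was the 1 pair of 28 to pass. Without Myd88 null array 4 and Ager null array 6, the arrays farthest from the median Fas level, r was 0.540. It was 0.640 after group means were removed, 0.584 in S range 1 to 6 (n = 6) and 0.772 in S range 13 to 20 (n = 8). The latter range holds both Myd88 null array 4 and Ager null array 6, and S range 7 to 12 holds too few arrays. The relation turned with the probe set. Against the second Cflar probe set Fas gave r = -0.849 (permutation p = 1e-05, the smallest the 100000 permutations can give; rho = -0.846), and against the third r = -0.585 (permutation p = 0.00701; rho = -0.644). Neither sign can be taken as that of Cflar as a gene. Fas itself gave r = 0.502 with the macrophage score (permutation p adjusted over 8 relations 0.0852), and the part of that score here was not tested.

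**Figure D4:**
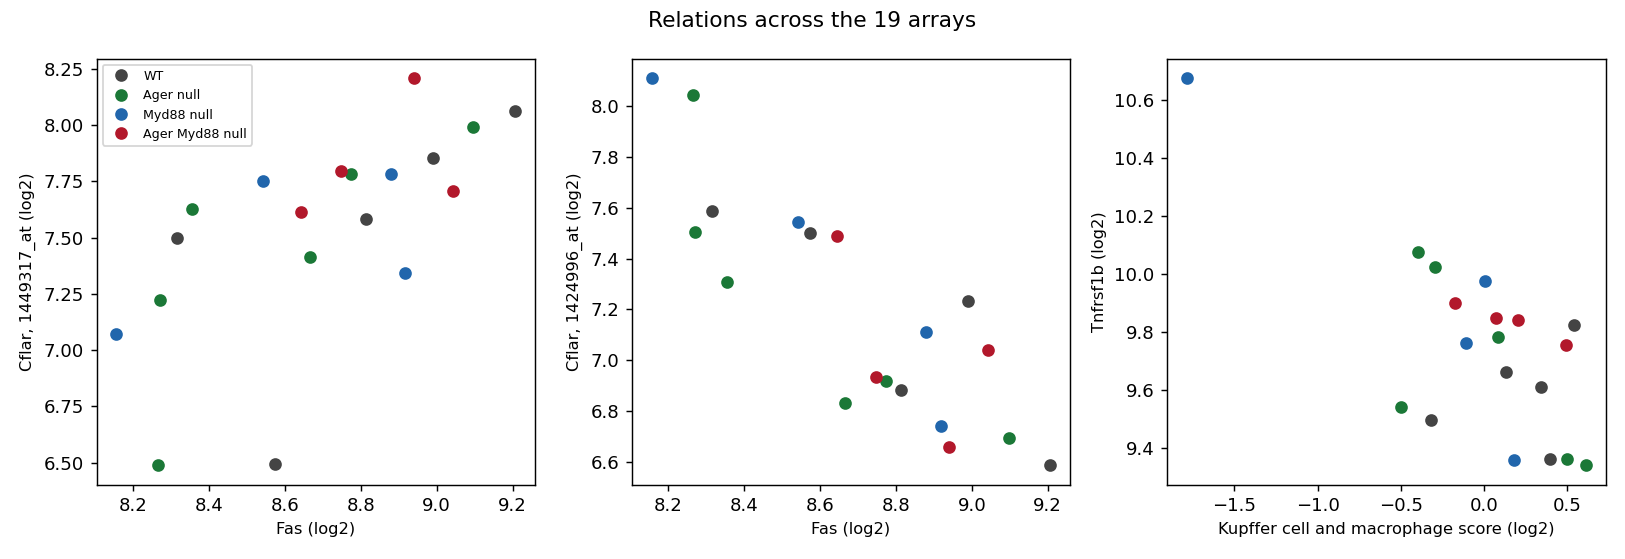
Each array plotted by Fas level against the brightest and the second Cflar probe set, and by macrophage score against the brightest Tnfrsf1b probe set (log2 units, colours are genotypes, 19 arrays a panel). Fas runs with the brightest Cflar probe set (r = 0.660) and against the second (-0.849), and Tnfrsf1b runs against the score (-0.741).

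Bcl2l1 encodes Bcl-xL, an anti-apoptotic protein that protects hepatocytes, and it held the largest share of variance between genotypes among the members, 32.0%. That share was ordinary among all tested genes, at percentile 59.7, where the median gene had 27.8%. It was 8.73, 8.75, 8.61, 8.81 and 8.46 in WT, 8.65 to 9.51 with a median of 8.80 in Ager null, 8.67, 8.70, 8.77 and 8.85 in Myd88 null and 8.41, 8.68, 8.37 and 8.73 in double null livers. The means were highest in Ager null (8.90 ± 0.31, n = 6), then Myd88 null (8.75 ± 0.08, n = 4), WT (8.67 ± 0.14, n = 5) and double null (8.55 ± 0.18, n = 4), and neighbours in that order did not pass the test of their difference. Double null was below Ager null by -0.35 ± 0.14 (unadjusted p = 0.0218, limma adjusted p = 0.153), and the interaction was -0.42 ± 0.20 (unadjusted p = 0.0493, adjusted p = 0.183). On the brightest probe set the groups overlapped, since double null arrays 2 and 4 lay above the lowest Ager null array.

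The other two Bcl2l1 probe sets ran the same way with larger differences. For double null against Ager null they gave -0.94 ± 0.30 and -0.97 ± 0.29, with limma adjusted p-values of 0.0943 and 0.0739. On both probe sets these groups did not overlap. The highest double null arrays (6.05 and 5.33) lay below the lowest Ager null arrays (6.18 and 5.45). Of all tested genes, on their brightest probe sets, 8.39% had no overlap in double null against Ager null. For the interaction the same probe sets gave -1.36 and -1.19, with limma adjusted p-values of 0.0743 and 0.0929. Ager null against WT was 0.23 ± 0.13 on the brightest probe set (adjusted p = 0.327) and 0.75 and 0.72 on the others (adjusted p = 0.139 and 0.135). The 3 probe sets correlated at r = 0.703 to 0.885 over 19 arrays. None passed. On the brightest probe set, part of the values rested on Ager null array 2. Without that array it gave -0.23 (adjusted p = 0.206) for double null against Ager null and -0.30 (adjusted p = 0.193) for the interaction. For Ager null against WT it then gave 0.10 (adjusted p = 0.564). Leaving the array out was not tested on the other probe sets, where it was also the highest. With the S range as a block, the brightest probe set gave -0.42 (adjusted p = 0.447) for double null against Ager null. Of all tested genes, those with the highest r with Bcl2l1 over the 19 arrays were Nucb2 (r = 0.840, rho = 0.711), Rgs3 (r = 0.809, rho = 0.749) and Rnf169 (r = 0.726, rho = 0.741). They were picked as the top of that ranking, with Ager null array 2 included, and the values are not a test.

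Mcl1, a short-lived anti-apoptotic protein that hepatocytes need, was 11.17, 11.60, 11.48, 11.91 and 11.43 in WT, 11.25 to 11.52 with a median of 11.37 in Ager null, 11.38, 11.47, 11.23 and 11.47 in Myd88 null and 11.29, 11.47, 11.42 and 11.34 in double null livers. The 3 mutant means lay between 11.38 and 11.39, below the WT mean of 11.52 ± 0.27 (n = 5), with differences of -0.13, -0.13 and -0.14, none of them past the test. Without WT array 4, the highest, they came to -0.03, -0.03 and -0.04. At the other end of the fits that left out 1 array, they came to -0.217, -0.216 and -0.223. All 6 Mcl1 probe sets passed the filter and had lower means than WT in each of the 3 mutant groups. The most separated, in Ager null against WT, gave -0.39 ± 0.17 (limma, adjusted p = 0.187). One of the 6 correlated at -0.03 to -0.22 with 4 of the others.

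Bid, the link from Casp8 to the mitochondrion, was 5.87, 5.42, 6.30, 6.10 and 5.82 in WT and 5.44 to 6.59 with a median of 6.02 in Ager null. It was 5.60, 5.57, 5.34 and 5.79 in Myd88 null and 6.40, 6.19, 5.73 and 5.24 in double null livers. Myd88 null had the lowest mean (5.58 ± 0.18, n = 4) and Ager null the highest (5.99 ± 0.44, n = 6), a difference of 0.42 ± 0.24 (adjusted p = 0.407) that the intervals allow to reach 0.92. The other two of its 3 probe sets were under the filter.

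For each of the 8 members, the farthest 95% bound of any pairwise difference was taken on its brightest probe set alone. It corresponded to 1.30-fold for Mcl1, 1.35-fold for Tnfrsf1a, 1.37-fold for Casp8, 1.56-fold for Bcl2l1, 1.61-fold for Fas, 1.73-fold for Tnfrsf1b, 1.89-fold for Bid and 2.02-fold for Cflar. Other probe sets gave larger differences, which these bounds do not cover. In double null against Ager null they reached -0.97 ± 0.29 (SE) for Bcl2l1 and -0.69 ± 0.32 for Cflar. For Tnfrsf1b the second probe set gave -0.46 ± 0.32 in double null against Myd88 null, and for Mcl1 one gave -0.39 ± 0.17 in Ager null against WT. In simulated data with each gene's own spread, 37.3% of genes changed by 0.5 were called for Ager null against WT and 80.6% of those changed by 1. Those shares are over genes drawn from all tested ones and not for the members, whose within-group SD ran from 0.14 (Tnfrsf1a) to 0.48 (Cflar). The simulation held no effect of S range or of single arrays.

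Around the members stood a list of 98 other cell death genes in 9 groups, of which 54 were tested. 1 of the 54 rose in Myd88 null against WT, where 0.399% of all tested genes were called, 1 rose in double null against Ager null (2.44% of all), and 2 had a negative interaction (2.41% of all). None was called in the other 4 comparisons. There limma gave an unadjusted p under 0.05 to 10 of 54 in Ager null against WT (21.6% of all tested genes), 3 in double null against WT (8.57%), 10 in double null against Myd88 null (16.1%) and 10 in Ager null against Myd88 null (15.9%). These counts are near the background shares. Death ligands could not be read: 0 of the 6 on the arrays passed the filter, with Fasl at a mean of 2.27, Tnf at 2.81 and Tnfsf10 (TRAIL) at 3.16. Fadd, Ripk3, Mlkl, Apaf1 and Bcl2 were also under the filter, and Ripk1 was not analysed here. The list was written with results of these arrays known, so its counts are not independent evidence.

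**Figure D5:**
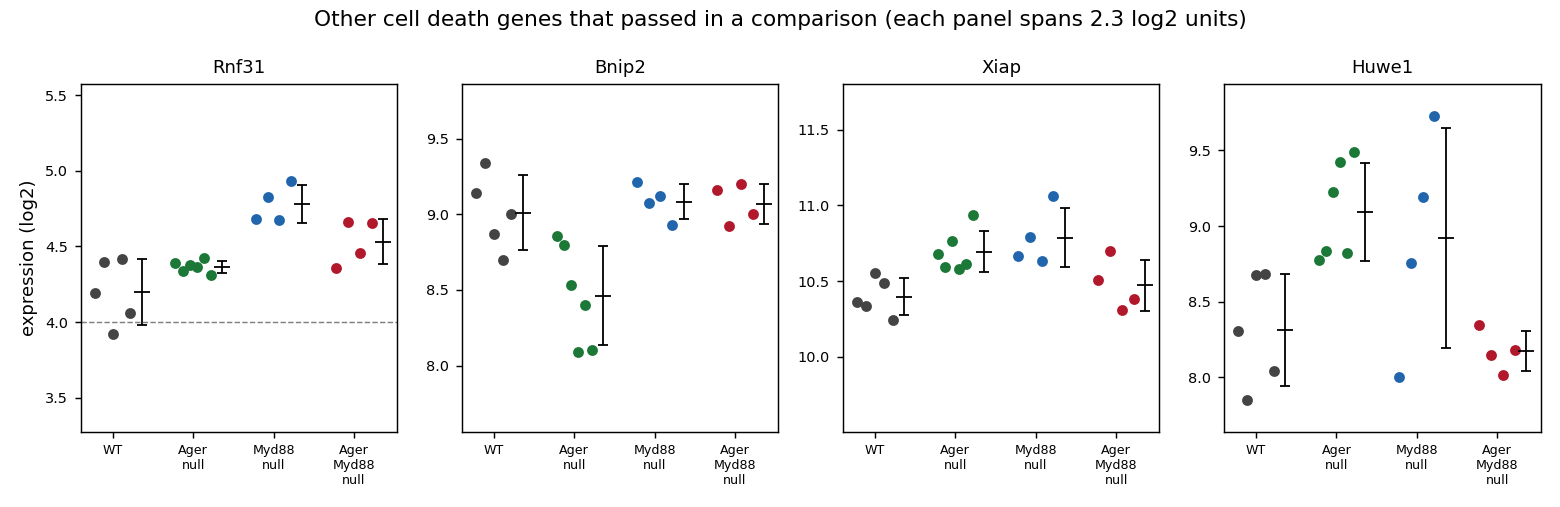
Log2 level of the 4 called list genes on each array by genotype (points are arrays, black bar mean ± SD). Bnip2 is lowest in Ager null livers (8.46 ± 0.33), and Huwe1 is highest there (9.09 ± 0.32).

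Of the ubiquitin enzymes and inhibitors of apoptosis, 10 of 12 were tested. Rnf31, the catalytic subunit (HOIP) of the linear ubiquitin complex that steadies TNF receptor signalling, rose in Myd88 null against WT by 0.58 ± 0.11 (limma, adjusted p = 0.0243). It was 4.78 ± 0.13 (SD, n = 4) in Myd88 null, 4.53 ± 0.15 (n = 4) in double null, 4.37 ± 0.04 (n = 6) in Ager null and 4.20 ± 0.22 (n = 5) in WT livers, close to the filter. The Myd88 null and WT arrays did not overlap, which 4.52% of all tested genes showed. The Rnf31 call was lost without Myd88 null array 2 (0.56, adjusted p = 0.0820), Myd88 null array 4 (0.53, adjusted p = 0.117) or WT array 5 (0.55, adjusted p = 0.0599). It was also lost with the arrays centred on their median (0.47, adjusted p = 0.0937) or quantile-normalized again (0.42, adjusted p = 0.145), with these 2 groups alone in the fit (adjusted p = 0.176), with a trended robust variance (adjusted p = 0.0506) and without S range 13 to 20, leaving 22 of 30 alternatives that kept it. Xiap, an inhibitor of caspases, was 10.40 ± 0.12 (n = 5) in WT, 10.70 ± 0.14 (n = 6) in Ager null, 10.79 ± 0.20 (n = 4) in Myd88 null and 10.47 ± 0.17 (n = 4) in double null livers. Both single null means lay above that of the double null, which was near WT, an interaction of -0.61 ± 0.16 (adjusted p = 0.0491), which became -0.23 when its probe sets were averaged. The Xiap call was kept in 4 of 19 fits that left out 1 array, with adjusted p-values from 0.0137 to 0.112, and in 8 of 29 alternatives in all. For Xiap it was lost with the S range as a block (-0.52, adjusted p = 0.339) and with the arrays centred (-0.55, adjusted p = 0.0665).

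Of the BH3-only and related genes, 10 were tested of 11 on the arrays. Bnip2, a BCL2-interacting protein, was 9.01 ± 0.25 (n = 5) in WT, 9.08 ± 0.12 (n = 4) in Myd88 null and 9.07 ± 0.13 (n = 4) in double null livers, and 8.46 ± 0.33 (n = 6) in Ager null. It rose in double null against Ager null by 0.61 ± 0.16 (limma, adjusted p = 0.0476), and in Ager null against WT it gave -0.55 with an adjusted p of 0.0629. The Bnip2 call was kept in 4 of 19 fits that left out 1 array, with adjusted p-values from 0.0361 to 0.175, and in 8 of 30 alternatives in all. For Bnip2 it was lost with the arrays centred (0.55, adjusted p = 0.0574), with the S range as a block (0.52, adjusted p = 0.372) and with its probe sets averaged (0.16, adjusted p = 0.238). Bnip2 lies on chromosome 9, 959 annotated genes from Myd88. Huwe1 (Mule), a ubiquitin ligase that targets Mcl1, was 8.31 ± 0.37 in WT, 9.09 ± 0.32 in Ager null, 8.92 ± 0.73 in Myd88 null and 8.17 ± 0.13 in double null livers. Its interaction was -1.53 ± 0.37 (adjusted p = 0.0435), and that call was kept in 6 of 19 fits that left out 1 array, with adjusted p-values from 0.00329 to 0.101, and in 12 of 28 alternatives in all. For Huwe1 it was lost with the S range as a block (-1.25, adjusted p = 0.281). With its probe sets averaged, Huwe1 was under the filter and was not tested.

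Among the other groups, no gene was called in any comparison. Ltbr, the lymphotoxin beta receptor, gave -0.37 in Ager null against WT (limma, adjusted p = 0.132) and 0.49 in double null against Ager null (adjusted p = 0.0761). Tnfrsf12a, the receptor for TWEAK, gave 1.24 in the interaction (adjusted p = 0.0730); it lies on chromosome 17, 490 annotated genes from Ager. Casp9, the initiator caspase downstream of mitochondria, gave 0.59 in Myd88 null against WT (adjusted p = 0.118) and -0.76 in the interaction (adjusted p = 0.0887).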

How the data were processed

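The authors deposited log2 expression values made with GCRMA, per the submitters' processing notes, which list version 2.16 for GCRMA and for R. There are 45101 probe sets on 19 arrays, with array medians from 2.75 to 2.83, so no further normalization was applied. Of these, 34945 carry 1 gene symbol, 932 several and 9160 none, and 64 are array controls.

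The probe set with the highest mean stood for each gene. Genes above log2 4 on at least 4 arrays were tested (8515), and 9678 were not. One limma fit (3.58.1, R 4.3.3) over the 4 groups (lmFit, eBayes, two-sided) gave the differences, with Benjamini-Hochberg adjustment over all tested genes; calls needed an adjusted p under 0.05. Correlations used 100000 permutations. The fit was tested on simulated data. No depth exists for arrays, so their number limits the precision. Members and lists were chosen with earlier results of these data known. Named were all members, the list genes called and, per group of the list and comparison with none called, at most 2 with the smallest p, and the 3 genes with the highest Pearson r with the member of smallest p, Bcl2l1. Alternatives covered normalization, filter, probe set choice, S range, replicate number, array weights and each array left out.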

Additional observations from a re-analysis of the deposited data

Results flagged for a closer look

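Bcl2l1 in Ager null array 2 stood apart from the other 5 arrays of its group. That array read 9.51, and its gap to the nearest array was 0.724 of the group's range, above the critical value of 0.625 for 6 samples. It was 1 of 32 member and group combinations examined, and chance gives about 1 in 20. The same array was also the highest of the 19 on the other Bcl2l1 probe sets, at 8.04 and 6.94.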

How the results depend on the processing

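None of the 8 members was called in any of the 7 comparisons under any alternative that gave a test. The alternatives gave 1831 values in all over 44 settings. These include the differences within S ranges, which had no test and could not be called. The smallest adjusted p (limma) was 0.0597, for Bcl2l1 in double null against Ager null with probe sets averaged. Of 56 member differences, 35 took the other sign under some alternative, none of them called. Leaving out 1 array at a time gave 0 called members throughout. With the replicate number as a block, 0 members were called in each comparison; the numbers do not pair the arrays, since same-numbered arrays correlated at -0.302 to 0.471 (9 of 25 pairs over 0.1) and 3 of 19 arrays correlated best with their own number. Under that block no list gene kept its call in double null against Ager null or in the interaction. Counts over all genes were less steady: 208 for double null against Ager null became 18 to 368 with an array left out and 91 to 619 otherwise, and 205 for the interaction became 0 to 1739 and 0 to 1382. The others were 107 (33 to 711; 16 to 403 with an array left out) for Ager null against WT, 34 (7 to 785; 10 to 987) for Myd88 null against WT, 27 (18 to 46; 18 to 34) for double null against WT, 13 (3 to 293; 2 to 446) for double null against Myd88 null and 107 (28 to 461; 30 to 179) for Ager null against Myd88 null. Leaving out S range 13 to 20 was chosen after seeing the data; Rnf31 then gave 0.50 (adjusted p = 0.280). The cause was not tested.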
